A study of Ambystoma mexicanum with 6 samples.

Results

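Ubiquitin is attached to proteins by a relay of enzymes and removed again by deubiquitinases, and the genes of both steps were followed here in axolotl cells. The set was chosen by gene symbol: ubiquitin and ubiquitin-like activating enzymes (UBA1 to UBA7), conjugating enzymes (UBE2 genes, without UBE2C), and the USP, OTUD and UCHL families of deubiquitinases. Of 99126 gene models in the count table, 116 carried such a symbol. Where a symbol had several models, the one with the most counts on average was read, which left 83 genes. They comprise 6 activating enzymes, 26 conjugating enzymes, 41 USP genes, 7 OTUD genes and 3 UCHL genes. Of these 83, 82 symbols are also gene names in the RefSeq annotation of the axolotl, all but UBE2J1.

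The cells were AL1, a wild-type line of fibroblasts from the axolotl, the salamander Ambystoma mexicanum, known for regrowing its limbs. In the treated group, 3 libraries came from cells given 10 µM etoposide with 1 µM nutlin-3a for 24 hours and then only nutlin-3a, at 1 µM, for 11 days. Etoposide is a topoisomerase poison that breaks DNA. Nutlin-3a keeps MDM2, itself a ubiquitin ligase, from binding p53. In the DMSO group, 3 libraries came from cells that received the solvent only and were passaged so that they kept dividing. Both groups were harvested at day 14, and polyadenylated RNA was sequenced. All 6 libraries are from 1 cell line, and the labels do not say whether each is a culture of its own. The p-values reflect the spread among these libraries and no more, and that spread may be technical. Drug exposure, senescence and the arrest of division cannot be told apart in this design.

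In the ubiquitin relay, an activating enzyme (E1) charges ubiquitin, a conjugating enzyme (E2) takes it over, and a ligase (E3) helps the E2 pass it to a target. Chains of ubiquitin send proteins to the proteasome or change what they bind, and single ubiquitins on chromatin and on the replication clamp mark damaged or copied DNA. Deubiquitinases trim or remove these marks, and SUMO, NEDD8 and ISG15 are small relatives of ubiquitin with relays of their own. Gene roles given here are those known from human, mouse or yeast proteins.

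Library totals were 33083856 to 46686876 counts in treated cells and 28604727 to 33633869 in DMSO cells, and no pair of libraries within a group agreed within sampling noise. Levels are CPM (read counts relative to the library total) after TMM scaling, which evens out libraries by their typical gene, and a count floor of 3 equals 0.0643 to 0.0907 CPM in treated libraries and 0.0892 to 0.105 CPM in DMSO libraries, before TMM scaling. Floors cover counting error only, since the protocol has no molecular identifiers. Mitochondrial transcripts took 12.1% of counts in DMSO replicate 1 and 7.86% to 9.15% in the other 5 libraries. Of 15 fibroblast markers, 14 were found and 9 could be tested. Their summed level was 7699 to 9420 CPM in treated and 7245 to 7498 CPM in DMSO libraries, most of it VIM, which was not called. Of the 9 tested, 3 fell and 0 rose: FN1 (log2 fold change −1.02, adjusted p = 0.000117), COL1A2 (−0.81, adjusted p = 0.000797) and COL1A1 (−0.62, adjusted p = 0.00749), all without overlap. VIM (log2 fold change 0.28, adjusted p = 0.135) and COL6A1 (0.60, adjusted p = 0.121) did not overlap either, with treated libraries above DMSO, but were not called. THY1, COL5A1 and DCN stood at or near 0. PRRX1 was low, at 0.515, 0.233 and 0.129 CPM in treated and 0.176, 0.0299 and 0.317 CPM in DMSO libraries. POSTN had too few counts to be tested. It was at 0.694, 0.310 and 0.773 CPM in treated and 0.0503, 0 and 0.159 CPM in DMSO libraries. Epithelial KRT18 fell, with 1142, 929.6 and 1028 CPM in treated libraries, against 1293, 1416 and 1370.2 CPM in DMSO libraries (log2 fold change −0.40, adjusted p = 0.0237). KRT5, the other epithelial marker tested, rose, with 4.19, 3.22 and 2.63 CPM in treated libraries, against 1.21, 0.956 and 0.539 CPM in DMSO libraries (log2 fold change 1.87, adjusted p = 0.000141). EPCAM and CLDN4 were at 0, and the 5 epithelial markers found summed to 933 to 1147 CPM in treated and 1294 to 1417 CPM in DMSO libraries, nearly all of it KRT18. Summed levels of the other lists were 4.07 to 5.84 CPM in treated and 3.25 to 3.52 CPM in DMSO libraries for 4 muscle markers found, 1.09 to 2.06 CPM in treated and 0.476 to 0.503 CPM in DMSO libraries for 6 endothelial markers, 5.003 to 7.52 CPM in treated and 1.67 to 2.32 CPM in DMSO libraries for 6 leukocyte markers and 7.33 to 11.03 CPM in treated and 7.17 to 9.92 CPM in DMSO libraries for 5 Schwann and neural markers. Endothelial CDH5 and TIE1 were at 0, while VWF rose (log2 fold change 2.87, adjusted p = 0.000161). VWF was at 1.30, 0.582 and 1.47 CPM in treated and 0.176, 0.120 and 0.159 CPM in DMSO libraries, the latter from 7, 4 and 5 counts. KDR, the other endothelial marker tested, was not called (log2 fold change 0.28, adjusted p = 0.585). Among leukocyte markers PTPRC and SPI1 were at 0, while CD68, also a lysosomal gene, rose, with 7.34, 4.96 and 6.39 CPM in treated libraries, against 1.81, 1.52 and 2.28 CPM in DMSO libraries (log2 fold change 1.74, adjusted p = 2.01e-05). Muscle CKM (0.53, adjusted p = 0.0285) rose and SOX10 of the Schwann and neural list (−0.77, adjusted p = 0.0309) fell, each a log2 fold change of a gene at a few CPM, and CKM was not called with library size alone. The part of these markers in the results below was not tested.

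Of the 83 genes, 76 had enough counts to be tested. With etoposide and nutlin-3a, 19 rose (25%) and 16 fell (21.1%), while 41 did not pass the adjusted threshold of 0.05. Among all 17424 models tested, 25.5% rose and 26.8% fell, 52.3% in either direction, so the shares of the ubiquitin enzymes were near the background. The median log2 fold change, treated over DMSO, was 0.06 for the set and −0.03 for all models. Changes of at least 2-fold that passed the threshold were seen in 8 genes that rose and 3 that fell, where 11.7% and 12.9% of all models did so. The 3 libraries of each group did not overlap for 44 of the 76 genes (57.9%), beside 60.2% of all models. Treated lay above DMSO in 22 of them and below in 22, beside 28.8% and 31.4% of all models. The groups were separate for 34 of the 35 genes that changed, UBA1 being the exception. No such share over all called models is given here, so it is not added evidence for the calls. In bulk RNA, fewer cells of a type and less RNA per cell cannot be told apart for any of these genes.

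The split between higher and lower calls depended on the scaling. With library size alone in place of TMM, 10 of the genes were called higher and 34 lower, beside 13.3% and 40.3% of all models, and the median log2 fold change of all models shifted by −0.37. By that scaling 22 of the 76 genes had a negative fold change in place of a positive one. Of the 19 genes that rose, 9 lost the threshold with it, namely UBE2V2, UCHL3, USP14, OTUD5, OTUD6B, USP47, USP3, USP9X and USP54, while 0 of the 16 falls were lost. A downward shift of all models is no test of the falls. With upper-quartile scaling, which shifts the median of all models by 0.09, 0 rises and 4 falls were lost. Directions below are those under TMM. Counts for each group of genes are to be read beside the 25.5% of all models that rose and the 26.8% that fell.

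**Figure D1:**
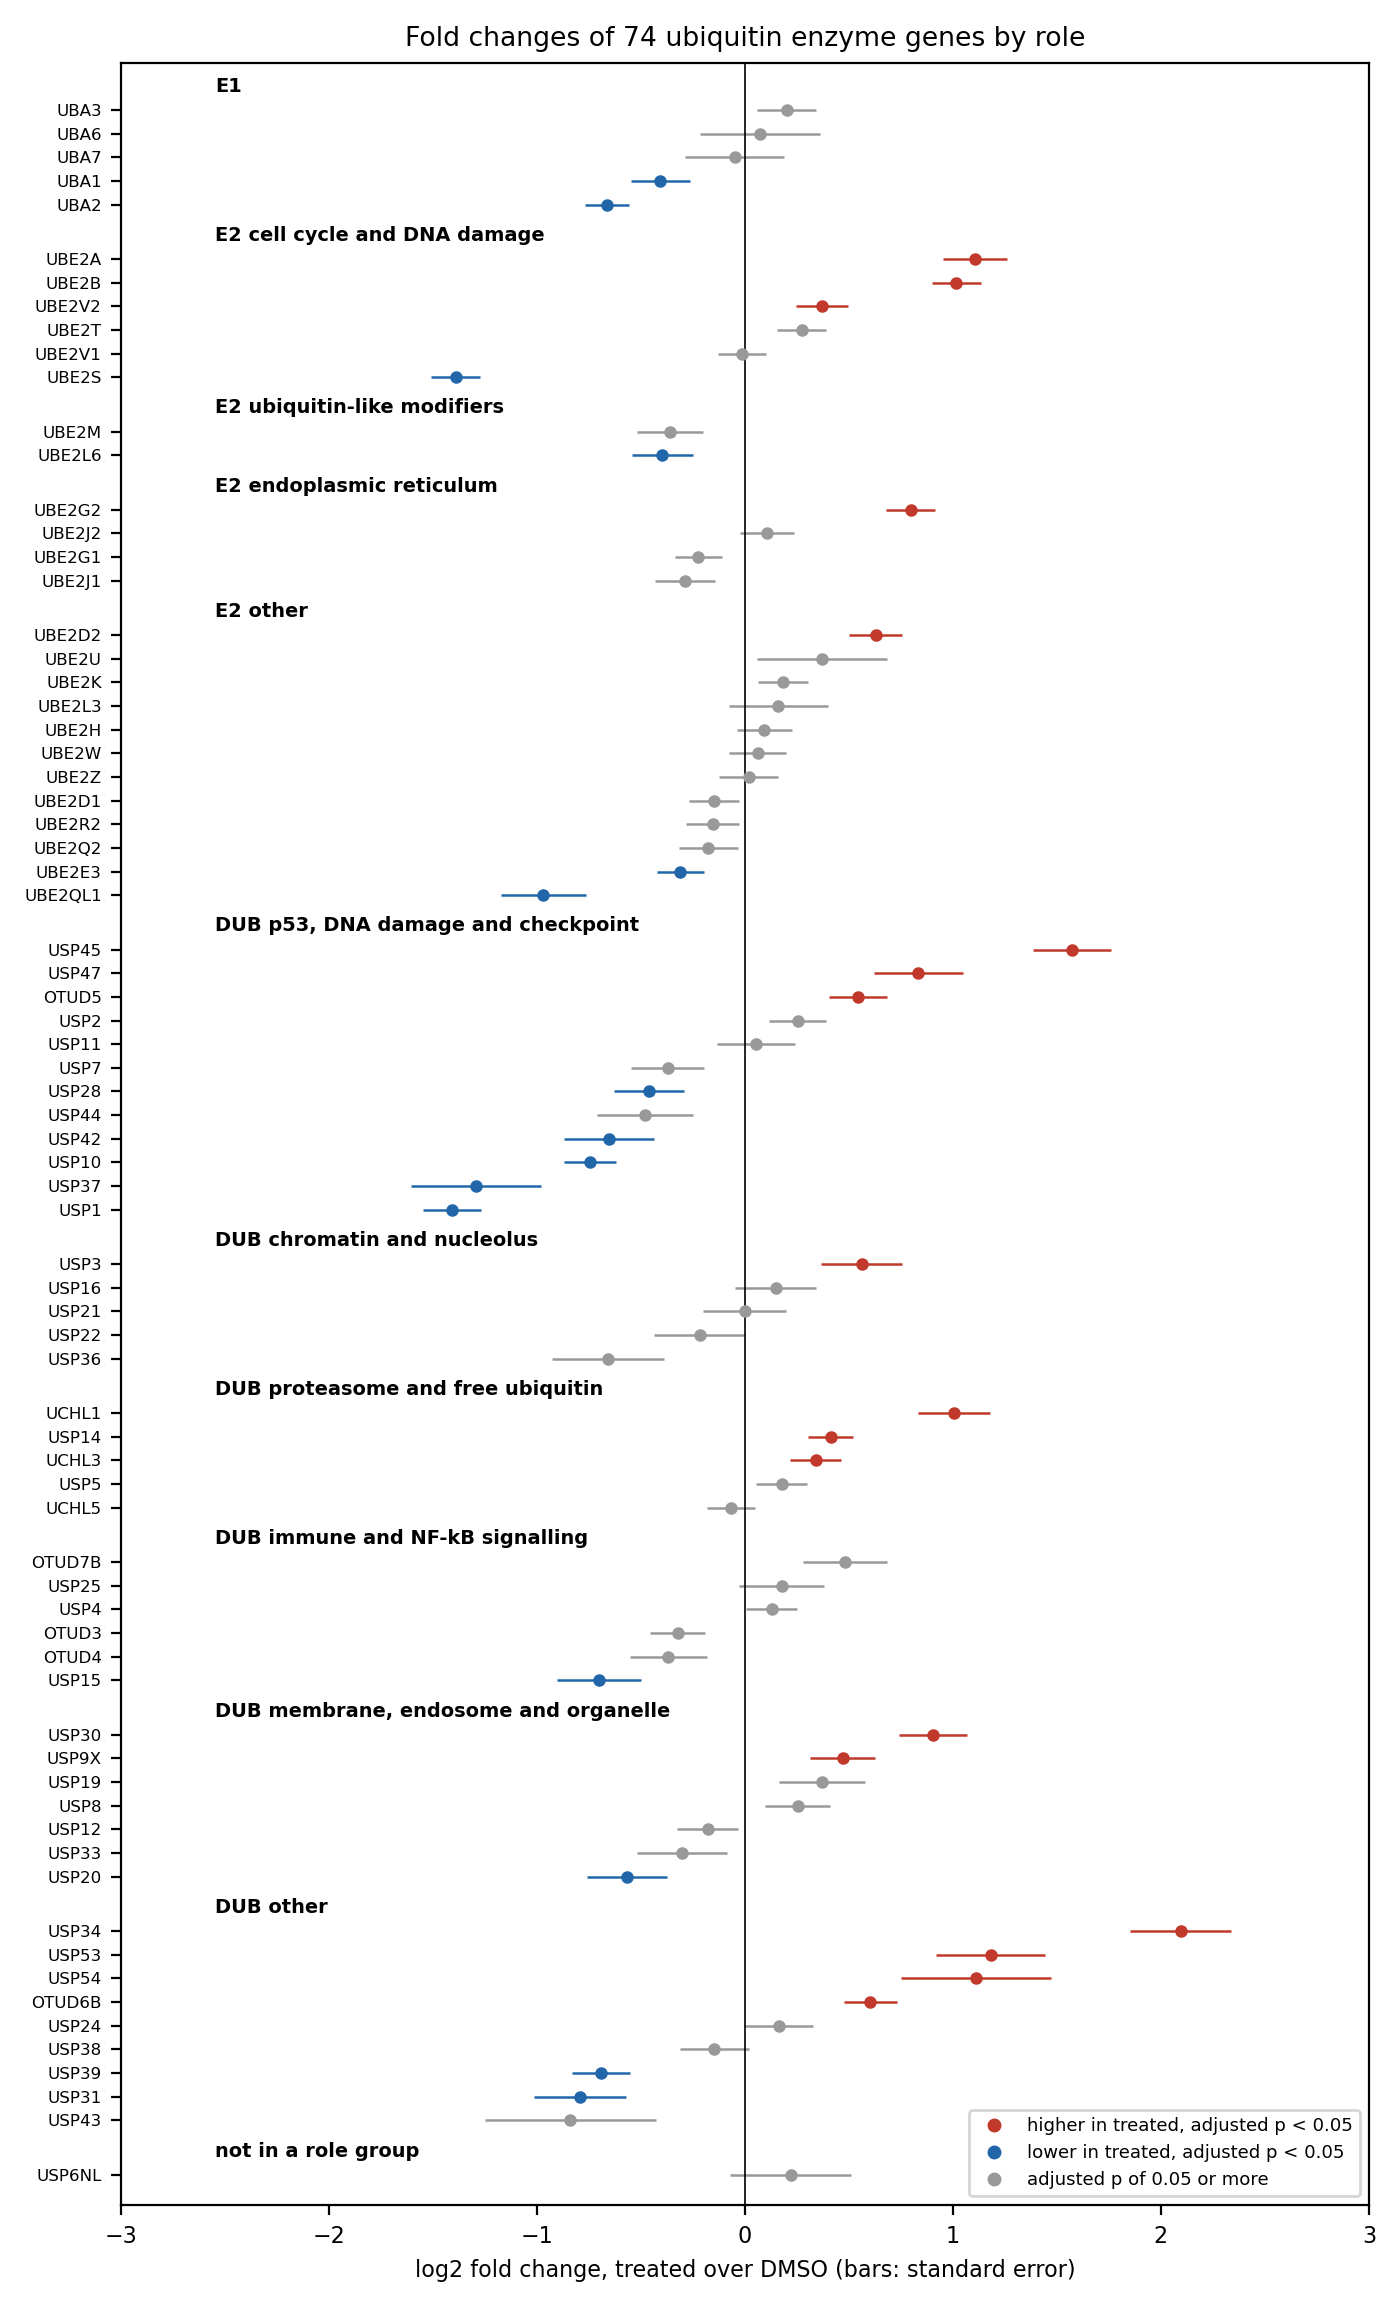
Log2 fold changes, treated over DMSO, of 74 tested genes, one row per gene in role groups, with standard errors as bars. Red genes rose and blue genes fell at an adjusted p below 0.05; USP34 (2.09) and USP45 (1.57) lie farthest to the right, and USP1 (−1.41) and UBE2S (−1.39) farthest to the left.

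Among the activating enzymes, UBA1 and UBA2 fell. UBA2, the catalytic subunit of the SUMO activating enzyme, had 47.9, 51.9 and 49.1 CPM in treated libraries, against 80.2, 77.5 and 78.1 CPM in DMSO libraries (log2 fold change −0.66, SE 0.11, adjusted p = 0.000146). The groups were far apart and tight. UBA1, the main activating enzyme for ubiquitin, fell by a smaller amount, with 124, 95.4 and 102 CPM in treated libraries, against 167, 138 and 121 CPM in DMSO libraries (log2 fold change −0.41, SE 0.14, adjusted p = 0.0265). Here the groups overlapped, since treated replicate 1 exceeded DMSO replicate 3. UBA3, UBA6 and UBA7 did not pass the threshold. UBA3 of the NEDD8 relay had 57.3, 80.4 and 55.7 CPM in treated libraries, against 59.2, 55.1 and 53.8 CPM in DMSO libraries (log2 fold change 0.20, adjusted p = 0.251), with only treated replicate 2 above the rest. UBA7 of the ISG15 relay, in the model read, stayed between 1.86 and 3.20 CPM in all 6 libraries (log2 fold change −0.05, adjusted p = 0.874). A second UBA7 model, 14.2 kb away, was not called either (log2 fold change 0.26, adjusted p = 0.673). Another model on that strand of arm 2q carries the symbol UBA1 but has neighbours of UBA7. It rose (log2 fold change 1.23, adjusted p = 0.00547) and is described below. UBA6, the other ubiquitin activating enzyme, is represented by a model of only 292 exonic bases, with 2.15, 1.47 and 1.70 CPM in treated libraries, against 2.32, 1.67 and 1.08 CPM in DMSO libraries (log2 fold change 0.07, adjusted p = 0.848), so its level rests on few bases.

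The conjugating enzymes that act in the cell cycle and in DNA damage changed in both directions, 3 of 6 rising and 1 falling. UBE2S, which lengthens ubiquitin chains on targets of the anaphase-promoting complex in mitosis (gene model AMEX60DD016493 on chromosome arm 1p, 1256545677 to 1256656019, minus strand), had 50.5, 59.5 and 50.6 CPM in treated libraries, against 130.0, 141 and 150.0 CPM in DMSO libraries. That is a fall in every treated library to well under the DMSO level (log2 fold change −1.39, SE 0.12, adjusted p = 5.71e-07), the smallest adjusted p in the set. UBE2A and UBE2B, the homologs of yeast RAD6 that place ubiquitin on the replication clamp with RAD18 and on histones with RNF20, both rose. UBE2A (gene model AMEX60DD037241 on chromosome arm 5p, 247310719 to 247618624, minus strand) had 469, 707 and 516 CPM in treated libraries, against 259, 256 and 271 CPM in DMSO libraries (log2 fold change 1.11, SE 0.15, adjusted p = 4.85e-05). UBE2B (gene model AMEX60DD028932 on chromosome arm 3q, 190562809 to 190916551, plus strand) had 115, 141 and 128 CPM in treated libraries, against 59.9, 64.7 and 65.3 CPM in DMSO libraries (log2 fold change 1.02, SE 0.12, adjusted p = 8.4e-06). Neither gene overlapped between groups, treated replicate 2 being the highest library for both. UBE2A and UBE2B are close paralogs, as are the UBE2D genes and UBE2V1 and UBE2V2, and how reads matching several of them were assigned is not given in the sources used here.

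Of the partner genes of these RAD6 homologs, RAD18 fell, with 4.92, 6.01 and 5.88 CPM in treated libraries, against 8.53, 8.55 and 8.22 CPM in DMSO libraries (log2 fold change −0.59, adjusted p = 0.006). RNF20 fell too, with 21.4, 13.8 and 18.9 CPM in treated libraries, against 29.7, 27.9 and 26.7 CPM in DMSO libraries (log2 fold change −0.63, adjusted p = 0.00306). UBE2A and UBE2B thus rose while RAD18 and RNF20 fell, in the same libraries. Among all models 25.5% rose and 26.8% fell. UBE2V2, an inactive E2 variant that helps UBE2N build chains at damaged DNA, had 234, 289 and 260.0 CPM in treated libraries, against 179, 209 and 218 CPM in DMSO libraries (log2 fold change 0.37, SE 0.13, adjusted p = 0.0253); with library size alone its log2 fold change was −0.01. Its relative UBE2V1 did not pass the threshold (log2 fold change −0.01, adjusted p = 0.924). UBE2T, the E2 of the Fanconi anaemia pathway, had 55.6, 56.4 and 57.1 CPM in treated libraries, against 40.4, 47.7 and 52.02 CPM in DMSO libraries. These groups did not overlap but the gene missed the threshold (log2 fold change 0.27, SE 0.12, adjusted p = 0.068). Its ligase FANCL (log2 fold change −0.31, adjusted p = 0.231) and its target FANCD2 (0.49, adjusted p = 0.0662) missed it as well, while the other target FANCI fell (−0.56, adjusted p = 0.0313). UBE2N has no row under that symbol and was not analysed here.

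Among the E2s of ubiquitin-like modifiers, UBE2L6, the ISG15 E2, fell, with 95.9, 60.3 and 77.5 CPM in treated libraries, against 98.5, 104 and 106 CPM in DMSO libraries (log2 fold change −0.40, SE 0.15, adjusted p = 0.0355). UBE2M, an E2 for NEDD8, had 12.2, 8.22 and 11.4 CPM in treated libraries, against 14.3, 13.7 and 12.9 CPM in DMSO libraries and missed the threshold (log2 fold change −0.36, adjusted p = 0.0724).

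Beside UBA2 of the SUMO relay, other SUMO genes were read from a separate list. SUMO2 itself had 124, 128 and 127 CPM in treated libraries, against 168, 197 and 211 CPM in DMSO libraries (log2 fold change −0.61, adjusted p = 0.000741). SENP1, a protease that matures SUMO and removes it from proteins, had 7.95, 5.86 and 7.89 CPM in treated libraries, against 16.2, 16.2 and 16.9 CPM in DMSO libraries (log2 fold change −1.18, adjusted p = 2.6e-05). All 5 tested SENP genes fell, the others being SENP7 (−0.84, adjusted p = 0.00254), SENP5 (−0.62, adjusted p = 0.00358), SENP3 (−0.45, adjusted p = 0.00887) and SENP6 (−0.46, adjusted p = 0.0323), each a log2 fold change. USPL1, a SUMO protease despite its name, fell by 1.19 on the log2 scale (adjusted p = 2e-05). SAE1, the partner subunit of UBA2, had 67.4, 65.7 and 58.7 CPM in treated libraries, against 71.5, 71.1 and 71.3 CPM in DMSO libraries and missed the threshold (log2 fold change −0.16, adjusted p = 0.236). UBA2 and the 5 SENP genes were also lower with library size alone. That scaling shifts the median of all models by −0.37, so it could hardly have removed these falls. With upper-quartile scaling, which shifts the median by 0.09, 4 of the 5 SENP genes were called lower. Among all models 26.8% fell under TMM and 40.3% with library size alone. The SUMO genes were set side by side knowing their values, so their shared direction is a description.

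At the endoplasmic reticulum, 1 of 4 E2s rose. UBE2G2, which builds chains on misfolded proteins drawn out of that compartment (gene model AMEX60DD055353 on chromosome arm 9q, 308919843 to 309094363, minus strand), had 293, 353 and 302 CPM in treated libraries, against 184, 178 and 184 CPM in DMSO libraries (log2 fold change 0.80, SE 0.12, adjusted p = 9.35e-05). The DMSO libraries were nearly equal, and all treated libraries were higher. UBE2G1 (log2 fold change −0.22, adjusted p = 0.108) and the membrane-anchored UBE2J1 (−0.29, adjusted p = 0.112) and UBE2J2 (0.10, adjusted p = 0.526) did not pass.

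Of the 12 other tested E2s, 1 rose and 2 fell. UBE2D2, a conjugating enzyme shared by many ligases (gene model AMEX60DD029049 on chromosome arm 3q, 252056380 to 252457912, minus strand), had 577, 657 and 583 CPM in treated libraries, against 355, 401 and 419.9 CPM in DMSO libraries (log2 fold change 0.63, SE 0.13, adjusted p = 0.001). Its groups did not overlap. UBE2QL1, a little-expressed E2-like gene, had 1.95, 1.63 and 2.37 CPM in treated libraries, against 3.73, 4.04 and 3.997 CPM in DMSO libraries (log2 fold change −0.97, SE 0.21, adjusted p = 0.00139). UBE2E3 had 89.6, 73.1 and 81.2 CPM in treated libraries, against 96.1, 102 and 104 CPM in DMSO libraries (log2 fold change −0.31, SE 0.11, adjusted p = 0.0339), a small difference. The remaining 9 lay between −0.18 and 0.37 on the log2 scale. CDC34, the cullin-ligase E2 outside the symbol rule, fell by 0.72 on the log2 scale (adjusted p = 0.00425).

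**Figure D2:**
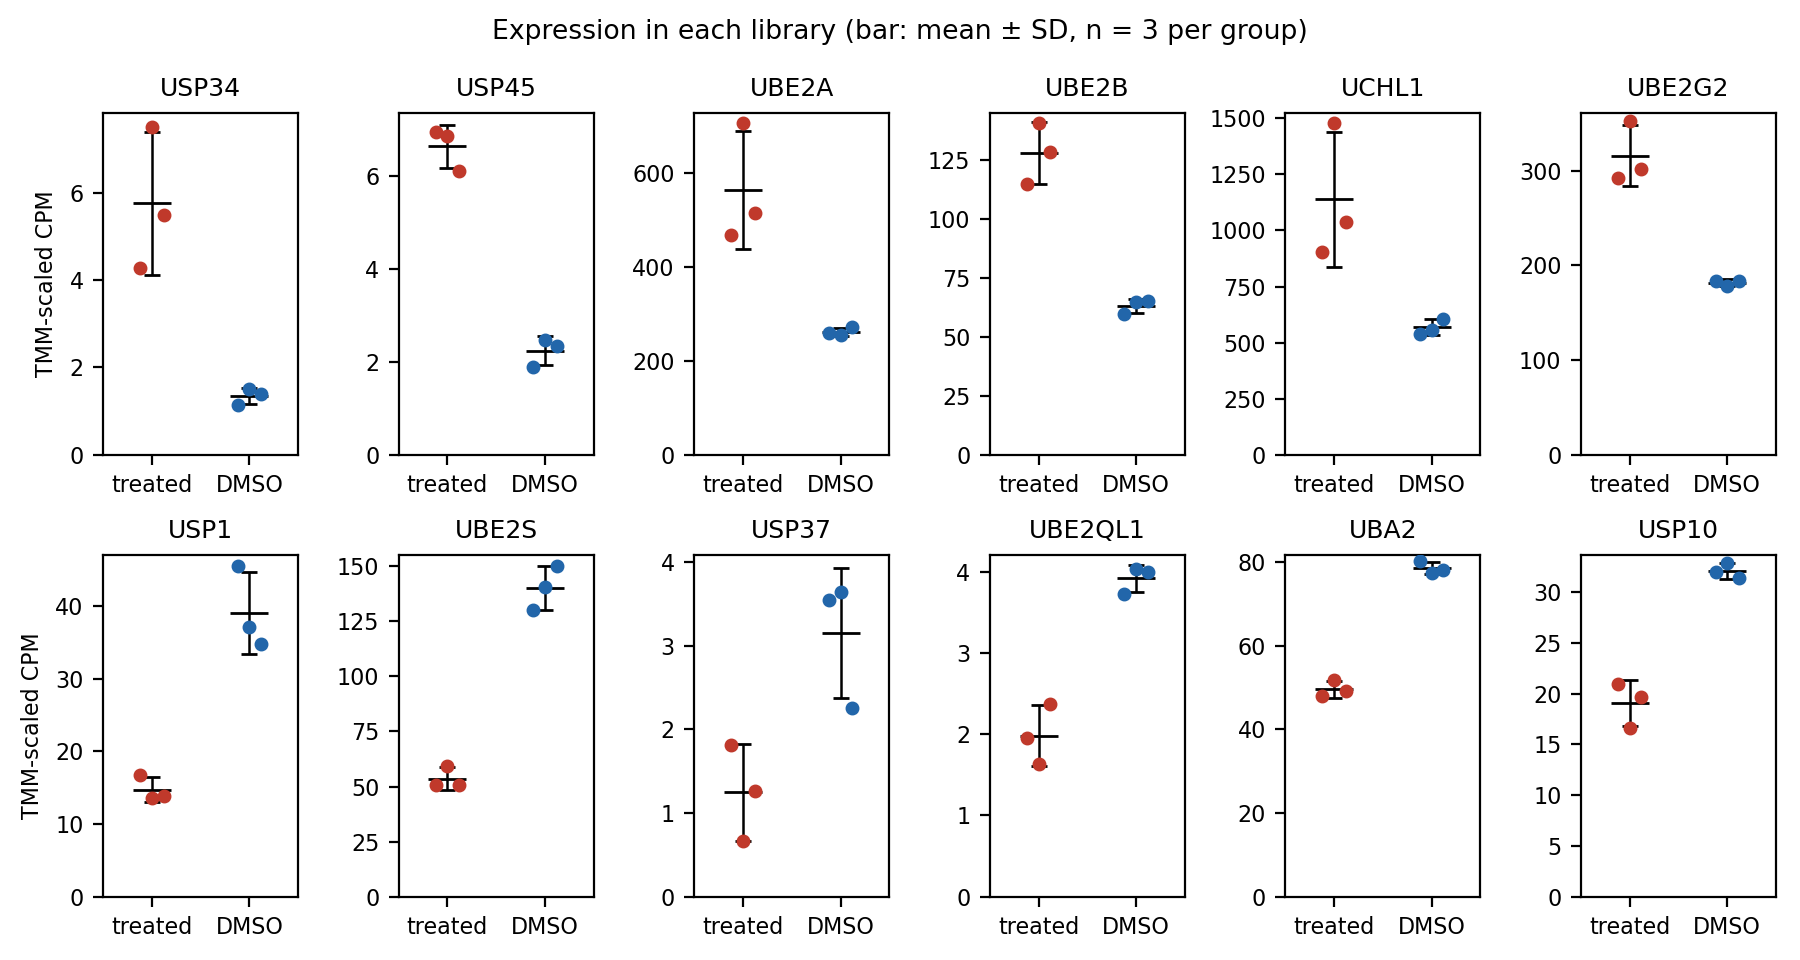
TMM-scaled CPM of 12 named genes in each library, treated left of DMSO, with the mean and SD of 3 libraries per group; each panel has its own axis from 0. In the upper row every treated library lies above every DMSO library (UBE2A at 469 to 707 CPM in treated and 256 to 271 CPM in DMSO). In the lower row every treated library lies below (USP1 at 13.6 to 16.7 CPM in treated and 34.8 to 45.5 CPM in DMSO). Separate groups were a condition for naming the largest changes, from which these genes come.

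Deubiquitinases linked to p53, DNA damage and checkpoints changed in both directions, 3 of 12 rising (25%) and 5 falling (41.7%). Among all models 25.5% rose and 26.8% fell. USP1, which takes ubiquitin off FANCD2 and the replication clamp (gene model AMEX60DD019396 on chromosome arm 1q, 1189216467 to 1189437565, minus strand), had 16.7, 13.6 and 13.8 CPM in treated libraries, against 45.5, 37.2 and 34.8 CPM in DMSO libraries (log2 fold change −1.41, SE 0.14, adjusted p = 2.54e-06). It stood below 17 CPM in all treated libraries and above 34 CPM in all DMSO libraries. Its activating partner WDR48 did not pass the threshold, with 31.1, 39.8 and 31.2 CPM in treated libraries, against 40.6, 34.7 and 29.8 CPM in DMSO libraries (log2 fold change −0.04, adjusted p = 0.812). USP37, which protects cyclin A at the start of S phase, had 1.81, 0.659 and 1.26 CPM in treated libraries, against 3.55, 3.65 and 2.25 CPM in DMSO libraries (log2 fold change −1.29, SE 0.31, adjusted p = 0.00339). Its counts are few. That its groups did not overlap was a condition for being named among the largest falls, as it was for the 12 largest changes in each direction. USP10, known to stabilise p53 in the cytoplasm, had 20.97, 16.6 and 19.7 CPM in treated libraries, against 31.99, 32.9 and 31.4 CPM in DMSO libraries (log2 fold change −0.75, SE 0.12, adjusted p = 0.000212). The DMSO libraries agreed closely and lay above all treated ones.

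USP28, which stabilises p53 and MYC, had 30.6, 17.3 and 22.7 CPM in treated libraries, against 32.8, 32.1 and 32.8 CPM in DMSO libraries (log2 fold change −0.46, SE 0.17, adjusted p = 0.0333). USP42, another p53 deubiquitinase, had 2.35, 1.75 and 1.70 CPM in treated libraries, against 3.05, 3.32 and 2.82 CPM in DMSO libraries (log2 fold change −0.65, SE 0.22, adjusted p = 0.0209). Both groups of each gene were separate, by little for USP28. USP7, which removes ubiquitin from MDM2 and p53, had 8.59, 7.45 and 8.998 CPM in treated libraries, against 13.7, 9.12 and 9.64 CPM in DMSO libraries. The treated libraries were all lower, yet it missed the threshold (log2 fold change −0.37, SE 0.18, adjusted p = 0.0907). GMPS, a metabolic enzyme that also binds USP7, fell by 0.74 on the log2 scale (adjusted p = 0.000104).

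USP45, USP47 and OTUD5 were the genes of that group that rose. USP45, which acts on the repair nuclease subunit ERCC1 (gene model AMEX60DD033842 on chromosome arm 4p, 757587837 to 758293571, plus strand), had 6.96, 6.86 and 6.11 CPM in treated libraries, against 1.89, 2.48 and 2.35 CPM in DMSO libraries (log2 fold change 1.57, SE 0.19, adjusted p = 1.17e-05). All treated libraries were higher, although the model holds 863 exonic bases. USP47, linked to base excision repair, had 4.03, 5.39 and 4.33 CPM in treated libraries, against 3.05, 1.97 and 2.63 CPM in DMSO libraries (log2 fold change 0.83, SE 0.21, adjusted p = 0.00508). OTUD5, linked to p53 and to innate immune signalling, had 19.3, 16.3 and 15.6 CPM in treated libraries, against 11.00, 12.9 and 11.3 CPM in DMSO libraries (log2 fold change 0.54, SE 0.14, adjusted p = 0.0052). With library size alone, OTUD5 and USP47 stayed higher but lost the threshold.

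Deubiquitinases that act on free ubiquitin or at the proteasome rose in 3 of 5 tested cases and fell in 0, where 25.5% of all models rose and 26.8% fell. With library size alone 1 of the 5 was higher and 1 lower. UCHL1, a small hydrolase abundant in neurons that binds free ubiquitin (gene model AMEX60DD045638 on chromosome arm 6q, 1126628656 to 1126898781, minus strand), had 903, 1479 and 1036 CPM in treated libraries, against 539, 557 and 607 CPM in DMSO libraries (log2 fold change 1.01, SE 0.17, adjusted p = 0.000276). Treated replicate 2 was far above the other treated libraries, and all 3 were above DMSO. USP14, a deubiquitinase bound to the proteasome, had 181, 181 and 167 CPM in treated libraries, against 135, 135 and 127 CPM in DMSO libraries (log2 fold change 0.41, SE 0.11, adjusted p = 0.00585). This was a small difference between tight groups, and it lost the threshold with library size alone. UCHL3, a relative of UCHL1 that also acts on NEDD8, had 106, 105 and 116 CPM in treated libraries, against 73.9, 88.9 and 95.99 CPM in DMSO libraries (log2 fold change 0.34, SE 0.12, adjusted p = 0.0306); with library size alone its log2 fold change was −0.03. UCHL5, also bound to the proteasome, had 84.4, 106 and 94.1 CPM in treated libraries, against 97.3, 101 and 100.3 CPM in DMSO libraries, with overlapping groups (log2 fold change −0.07, adjusted p = 0.64). USP5, which takes apart unanchored chains, missed the threshold too (log2 fold change 0.18, adjusted p = 0.243). PSMD14, the deubiquitinase built into the proteasome lid and outside the symbol rule, had 391, 475 and 409 CPM in treated libraries, against 219, 235 and 251 CPM in DMSO libraries (log2 fold change 0.86, adjusted p = 8.14e-05).

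At membranes and organelles, 2 of 7 rose and 1 fell. USP30, which sits on the outer membrane of mitochondria and opposes their removal, had 7.92, 7.41 and 9.41 CPM in treated libraries, against 4.45, 4.42 and 4.35 CPM in DMSO libraries (log2 fold change 0.91, SE 0.16, adjusted p = 0.000417). The DMSO libraries were nearly equal, and all treated libraries were higher. USP9X, linked to cell adhesion and TGF-beta signalling, had 7.27, 7.02 and 6.81 CPM in treated libraries, against 5.13, 4.81 and 5.30 CPM in DMSO libraries (log2 fold change 0.47, SE 0.16, adjusted p = 0.0214). USP20, known for recycling adrenergic receptors, had 2.35, 2.95 and 2.84 CPM in treated libraries, against 4.20, 4.18 and 3.62 CPM in DMSO libraries (log2 fold change −0.57, SE 0.19, adjusted p = 0.023). Neither gene overlapped between groups, though both stand at a few CPM. USP9X lost the threshold with library size alone (log2 fold change 0.10, adjusted p = 0.643) and with no low-count filter.

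Of 5 tested deubiquitinases of chromatin and the nucleolus, only USP3, a histone deubiquitinase, passed, with 4.68, 6.90 and 4.82 CPM in treated libraries, against 3.60, 3.83 and 3.62 CPM in DMSO libraries (log2 fold change 0.56, SE 0.19, adjusted p = 0.0264). It lost the threshold with library size alone (log2 fold change 0.17, adjusted p = 0.436) and with no low-count filter. USP22, the deubiquitinase of the SAGA coactivator, had 3.33, 2.83 and 3.84 CPM in treated libraries, against 3.90, 4.87 and 2.92 CPM in DMSO libraries, with overlapping groups (log2 fold change −0.22, adjusted p = 0.425). Among 6 tested genes linked to immune and NF-kB signalling 1 fell: USP15, also linked to TGF-beta signalling, had 2.62, 2.48 and 2.91 CPM in treated libraries, against 5.34, 3.92 and 3.77 CPM in DMSO libraries (log2 fold change −0.70, SE 0.20, adjusted p = 0.0102). USP18, the ISG15 protease induced by interferon, had 0.246, 0.0388 and 0.258 CPM in treated libraries, against 0, 0 and 0 CPM in DMSO libraries. A count of 0 allows up to 0.0892 to 0.105 CPM before TMM scaling, depending on the library, while the USP18 levels are TMM-scaled. The gene had too few counts to be tested, and no fold is given. TNFAIP3, an NF-kB inhibitor with an OTU protease domain outside the symbol rule, had 12.8, 10.8 and 11.1 CPM in treated libraries, against 3.57, 2.90 and 2.73 CPM in DMSO libraries (log2 fold change 1.91, adjusted p = 9.78e-07), with all treated libraries higher.

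The remaining USP and OTUD genes held the largest fold change of the set. USP34, a large deubiquitinase linked to Wnt signalling through axin (gene model AMEX60DD035367 on chromosome arm 4q, 404297187 to 406081790, plus strand), had 4.28, 7.52 and 5.49 CPM in treated libraries, against 1.13, 1.49 and 1.40 CPM in DMSO libraries (log2 fold change 2.09, SE 0.24, adjusted p = 1.08e-05). Every treated library was above every DMSO library, which was a condition for being named among the largest rises. USP53 had 1.75, 1.86 and 1.68 CPM in treated libraries, against 0.805, 0.658 and 0.857 CPM in DMSO libraries (log2 fold change 1.18, SE 0.26, adjusted p = 0.0019). USP54 had 0.649, 0.814 and 1.03 CPM in treated libraries, against 0.378, 0.389 and 0.381 CPM in DMSO libraries (log2 fold change 1.11, SE 0.36, adjusted p = 0.0189). Both are near or below 2 CPM, and USP54 lost the threshold with library size alone (adjusted p = 0.0873) and in DESeq2. OTUD6B was better counted, with 98.4, 104 and 111 CPM in treated libraries, against 57.8, 69.1 and 79.4 CPM in DMSO libraries (log2 fold change 0.60, SE 0.13, adjusted p = 0.00144), and it lost the threshold with library size alone. USP31 had 3.87, 2.06 and 3.27 CPM in treated libraries, against 5.56, 4.69 and 5.93 CPM in DMSO libraries (log2 fold change −0.79, SE 0.22, adjusted p = 0.00875). USP39, an inactive USP that serves in splicing, had 35.5, 23.7 and 31.9 CPM in treated libraries, against 47.5, 51.3 and 48.8 CPM in DMSO libraries (log2 fold change −0.69, SE 0.14, adjusted p = 0.00108). Their groups did not overlap. USP6NL matches the symbol rule but encodes a regulator of RAB GTPases, and it did not pass (log2 fold change 0.22, adjusted p = 0.549). Without USP39 and USP6NL, 19 genes rose and 15 fell.

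Calls of 23 of the 35 changed genes held when any 1 library was left out, and those of 12 did not. USP15 lost the threshold only without DMSO replicate 1 (log2 fold change −0.53, adjusted p = 0.0584). USP42 lost it without treated replicate 3 or DMSO replicate 2 (adjusted p 0.0789 to 0.0831), and USP9X without DMSO replicates 2 or 3 (0.0544 to 0.102). USP20 lost it without treated replicate 1 or DMSO replicates 1 or 2 (adjusted p 0.0637 to 0.0824). UBE2V2 and UCHL3 lost it without treated replicate 3 or DMSO replicates 1 or 2 (0.0701 to 0.103 for UBE2V2, 0.0863 to 0.130 for UCHL3). UBA1 lost it without treated replicates 2 or 3 or DMSO replicates 1 or 2 (0.0589 to 0.127), and UBE2E3 without treated replicates 2 or 3 or DMSO replicates 2 or 3 (0.0511 to 0.108). USP3 lost it without treated replicate 2 or any DMSO replicate (0.0668 to 0.0833), and USP54 without treated replicate 3 or any DMSO replicate (0.0557 to 0.0839). UBE2L6 and USP28 lost it without treated replicates 2 or 3 or any DMSO replicate (0.0609 to 0.0972 for UBE2L6, 0.0654 to 0.105 for USP28). Each kept its direction in these fits. UBA1, UBE2E3, UBE2L6 and USP28 also lost the threshold with upper-quartile scaling, UBE2E3 with RLE size factors and USP20 in DESeq2.

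Levels were set side by side between genes per kilobase of exon. The order is rough, since RNA was copied from the poly(A) tail and counts need not scale with exonic length. USP34 also has several models, and some models are short, such as UBA6 with 292 exonic bases. UCHL1 was highest at a mean of 599 CPM per kb over the 6 libraries, followed by UBE2D2 at 269, UBE2A at 148, UBE2G2 at 97.1, UCHL3 at 69.1, UBE2S at 66.2, UBE2E3 at 55.2 and UCHL5 at 54.1 CPM per kb. Of these 8 genes, 5 rose, 2 fell and UCHL5 did not pass. In treated cells UBE2S stood at 36.6 and UBE2G2 at 123 CPM per kb, while in DMSO cells UBE2S was the higher, at 95.8 beside 70.9 CPM per kb for UBE2G2. USP genes were mostly far lower, USP1 averaging 5.30 and USP34 0.669 CPM per kb.

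**Figure D3:**
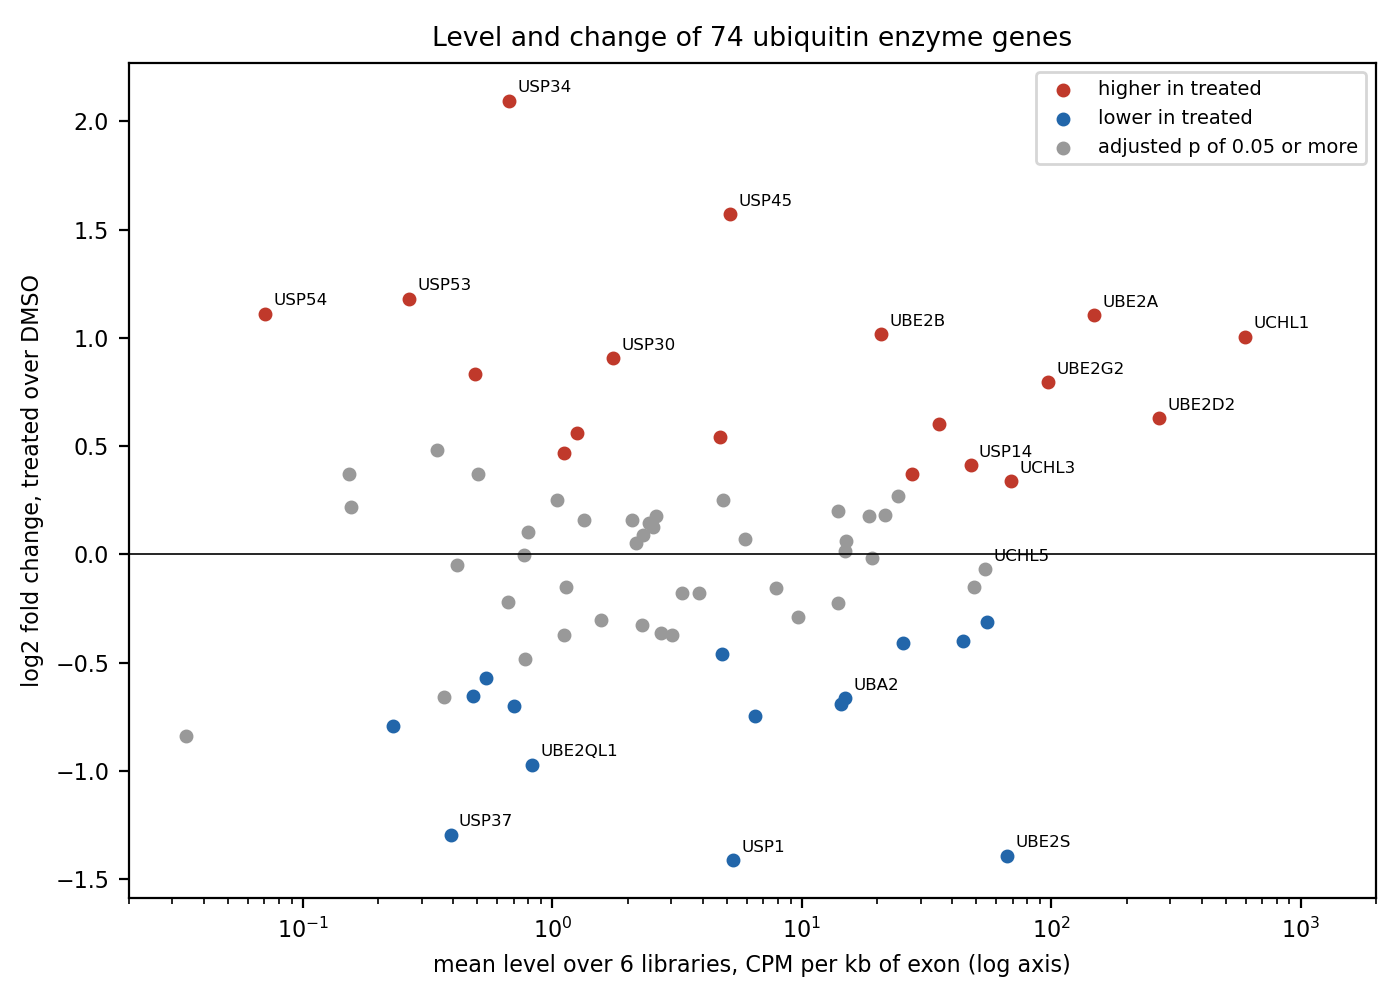
Mean level over all 6 libraries in CPM per kb of exon (log axis) against the log2 fold change, treated over DMSO, for 74 tested genes. UCHL1, UBE2D2, UBE2A and UBE2G2 lie at the upper right, highly expressed and higher in treated cells, while UBE2S (66.2 CPM per kb) is the highly expressed gene with the largest fall.

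Added over all 83 genes, scaled levels were 4988, 5987 and 5159 CPM in treated libraries, against 3965, 4117 and 4214 CPM in DMSO libraries. The 5 genes with the most reads, UCHL1, UBE2D2, UBE2A, UBE2G2 and UBE2V2, made up 49.6%, 58.2% and 52.3% of that sum in treated libraries, against 38.2%, 38.9% and 40.3% in DMSO libraries. Without these 5 the sums were 2513, 2503 and 2462 CPM in treated libraries, against 2450, 2517 and 2514 CPM in DMSO libraries, and the groups overlapped. The ratio of the mean sums, 1.31 treated over DMSO, was close to the 1.30 of all tested models under the same scaling. As a share of each library's raw counts, the 83 genes took 0.467% to 0.477% in treated and 0.464% to 0.468% in DMSO libraries.

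Of 22 tested genes listed as deubiquitinases outside the symbol rule, 8 rose (36.4%) and 3 fell (13.6%). The list is not purely of deubiquitinases. It holds the SUMO protease USPL1, which fell and was named above, COPS5, and PAN2, annotated as a poly(A)-specific ribonuclease. Beside TNFAIP3 and PSMD14, JOSD2 (log2 fold change 1.18, adjusted p = 1.08e-06) and the signalosome subunit COPS5, which removes NEDD8 from cullins (0.76, adjusted p = 0.000143), were among those that rose, and STAMBPL1 (−0.96, adjusted p = 0.000294) and OTUB1 (−0.46, adjusted p = 0.00496) fell. Of 8 tested E1 and E2 genes outside the rule, 3 rose and 1 fell. UEVLD rose most (log2 fold change 0.81, adjusted p = 0.000207), and NAE1, the partner of UBA3, rose as well (0.57, adjusted p = 0.00169). Among 4 tested ubiquitin-like modifiers, SUMO2 and URM1 fell (URM1 log2 fold change −0.57, adjusted p = 0.00511). Of 18 tested cofactors and substrates, 3 rose and 6 fell. With library size alone 4 of the 22 genes listed as deubiquitinases were higher and 6 lower, 1 and 3 of the 8 E1 and E2 genes, and 1 and 11 of the 18 cofactors and substrates. RBX1, the RING subunit of cullin ligases, had 206, 377 and 249.8 CPM in treated libraries, against 93.9, 117 and 134 CPM in DMSO libraries, the largest rise among them (log2 fold change 1.27, adjusted p = 0.000126), with treated replicate 2 highest.

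Symbols shared by several gene models were checked pair by pair. For 12 symbols a second model was also tested, and the ratio of the counts of both models was taken within each library. USP34 has 2 models on the same strand of arm 4q, 24.8 kb apart, next to the same 7 of 10 named neighbours that flank the single USP34 gene of RefSeq. Counts of the first over the second were 4.90, 3.96 and 4.84 in treated libraries, against 0.957, 1.39 and 1.76 in DMSO libraries. The ratios did not overlap, but 3 against 3 libraries cannot give an exact two-sided permutation p below 0.1, which became 0.2 when adjusted over the 12 pairs. The second model had 0.873, 1.90 and 1.13 CPM in treated libraries, against 1.18, 1.08 and 0.793 CPM in DMSO libraries, with no call (log2 fold change 0.31, adjusted p = 0.449), so the rise of USP34 was seen in 1 of its 2 models.

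USP24 also has 2 models on 1 strand, 1428 kb apart. The first did not pass (log2 fold change 0.16, adjusted p = 0.433), while the second rose, with 2.55, 3.14 and 2.66 CPM in treated libraries, against 1.96, 1.61 and 1.62 CPM in DMSO libraries (log2 fold change 0.67, adjusted p = 0.0183). Whether USP24 is called thus depends on the model read. USP45 was called in its first model, while the second, of 733 exonic bases, had 0.671, 0.621 and 0.670 CPM in treated libraries, against 0.529, 0.568 and 0.254 CPM in DMSO libraries (log2 fold change 0.53, adjusted p = 0.268). UCHL1 has 4 models, and both that were tested rose. The second, of 587 exonic bases on an unplaced contig, had 2.60, 4.50 and 2.81 CPM in treated libraries, against 1.66, 1.55 and 1.97 CPM in DMSO libraries (log2 fold change 0.92, adjusted p = 0.00742). Counts of the first over the second were 329 to 369 in treated and 309 to 358 in DMSO libraries. Whether reads of the first model were counted in the second was not tested.

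For some other symbols the second model lies at another place. The second UBE2D2 model, on arm 6q, had 84.1, 71.9 and 84.4 CPM in treated libraries, against 85.2, 93.9 and 89.3 CPM in DMSO libraries and no call (log2 fold change −0.16, adjusted p = 0.254). All 10 of its named neighbours flank UBE2D3 in RefSeq, and none flank UBE2D2. The second UBE2D1 model, on arm 10p, fell (log2 fold change −0.44, adjusted p = 0.00933) and shares 9 of 10 neighbours with UBE2D4 of RefSeq, while the first, on arm 8q, did not pass (−0.15, adjusted p = 0.308). The second UBA1 model, of 1314 exonic bases, rose (log2 fold change 1.23, adjusted p = 0.00547) and shares 7 of 10 neighbours with UBA7 and none with UBA1. Whether UBA7 is called may thus depend on the model read. RefSeq describes another assembly, and the neighbours of 6 symbols were looked up after the values were known.

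**Figure D4:**
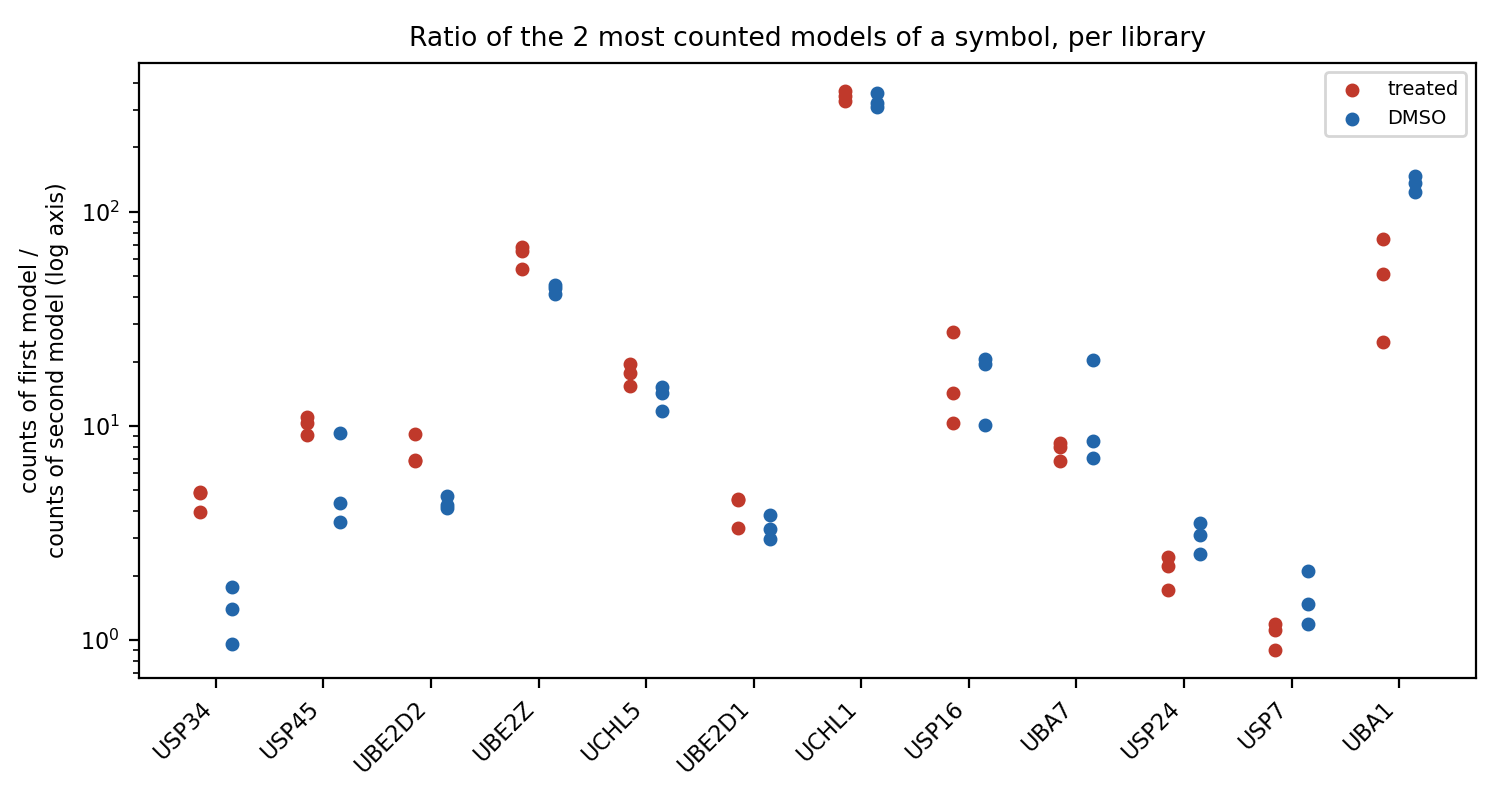
Counts of the most counted model of a symbol divided by counts of the next model, in each library (log axis), treated left of DMSO, for the 12 symbols with 2 tested models. The ratio of the USP34 models is 3.96 to 4.90 in treated and 0.957 to 1.76 in DMSO libraries, and that of UBE2D2 is 6.86 to 9.13 in treated and 4.16 to 4.70 in DMSO libraries.

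The 41 genes that did not pass included 22 with a log2 fold change within 0.2 of 0, and a p above the threshold does not show that they were equal. Of the 7 genes not tested, OTUD1 and UBE2O had 0 counts in all libraries, and OTUD7A, USP13, USP18, USP32 and USP40 had too few. Exonic length was also set beside the changes: the 38 genes at or under 4425 bases had a median log2 fold change of 0.07, and the 38 longer ones −0.10, where all models split at the same length had 0.08 and −0.17.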

How the data were processed

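Polyadenylated RNA of 6 AL1 samples was reverse transcribed from the poly(A) tail and amplified, and the protocol in the labels does not mark strand, so reads of overlapping or antisense genes cannot be told apart. The authors deposited whole-number read counts per gene model with exonic lengths in bases, 1 column per sample, not normalized. The submitters' processing notes name bcl2fastq 2.20.0, STAR 2.7.7a and featureCounts 2.0.1 without roles. The assembly is AmexG_v6_DD, per the name of the table, and coordinates are those of the table. How reads matching several places were treated is not given in the sources used here. Columns were matched to samples by their description labels. Gene names are the table's symbols. Its descriptive text for USP1 names an unrelated enzyme and was not used.

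The test used edgeR 4.0.16 under R 4.3.3, with filterByExpr, TMM scaling and the quasi-likelihood F-test, two-sided and robust, on the whole table without 92 spike-in rows, which held 0 counts. Adjusted p-values are Benjamini-Hochberg values over 17424 models, and fold changes are treated over DMSO. SEs were derived from the F statistic. The script was tested on simulated data. Libraries within a group differed by a chi-square of 5.63 to 68.8 per degree of freedom. Named with values were the 12 largest changes in each direction past the threshold without overlap, the 8 highest levels per length and a fixed list of 21 symbols. Of these, UBE2N and UBE2D3 have no row under that symbol, and UBE2N was not analysed here. The model with the neighbours of UBE2D3 carries the symbol UBE2D2, lies on arm 6q and is given above. USP28, USP3, USP9X, UBE2V2 and OTUD6B were named in addition, and any further member named was chosen with its values known. Members, role groups and lists were chosen with earlier results of these data known. Other scalings, filters, DESeq2 1.42.0, summed models, thinned counts and leaving out each library were tried as alternatives. A few genes that entered the counts are not reported here by name. No sequence is printed, since no sequence table was used here.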

Additional observations from a re-analysis of the deposited data

How the results depend on the processing

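Of the alternatives tried, scaling by library size alone moved the counts of calls most. With it, 10 of the 76 genes were higher and 34 lower, with a median log2 fold change of −0.32, and among all models 2314 were higher and 7029 lower. That scaling shifts the median of all models by −0.37 on the log2 scale, and 22 of the 76 genes turned negative under it. Of genes called with either scaling these were UBE2V2 (log2 fold change −0.0080) and UCHL3 (−0.026), which lost their calls, and UBE2W (−0.33), which was called lower with library size alone only. Leaving out 1 library gave 14 to 22 genes higher and 10 to 17 lower, the 10 without DMSO replicate 2. Without treated replicate 3 or any DMSO replicate, fewer of these genes were called in both directions, and so were fewer of all models. Fewer calls in those fits were thus not particular to the ubiquitin enzymes. Whether the set lost a larger share than all models was not tested. RLE size factors, upper-quartile scaling, both low-count filters, DESeq2, counts summed over models of a symbol, and counts thinned to the smallest library (an alternative chosen after seeing the data, as was leaving out USP6NL and USP39) gave 17 to 21 higher and 12 to 19 lower. With RLE size factors or upper-quartile scaling, the set and all models both had more higher and fewer lower calls than under TMM. With either low-count filter or thinned counts, the calls of the set and of all models did not always move the same way. Over all 14 alternatives 10 of 19 genes that rose, 9 of 16 that fell and 17 of 41 that did not pass kept their side of the threshold. Summing over models joins different loci for UBE2D1, UBE2D2 and UBA1. No paired analysis was possible because the replicate numbers only follow the order of the records and pair no libraries across groups. Few counts limit what can be said of the 24 tested genes that average under 5 CPM.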

Other observations

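Some genes missed the adjusted threshold although their groups did not overlap, 10 in all. They were looked at after their values were known. USP36, a nucleolar deubiquitinase, had 2.26, 1.82 and 1.08 CPM in treated libraries, against 2.32, 3.11 and 2.76 CPM in DMSO libraries (log2 fold change −0.66, adjusted p = 0.0548). USP44, which acts in the spindle checkpoint, had 3.58, 1.94 and 3.69 CPM in treated libraries, against 4.66, 4.54 and 3.84 CPM in DMSO libraries (log2 fold change −0.48, adjusted p = 0.0967). OTUD7B, linked to NF-kB signalling, had 4.52, 4.50 and 3.53 CPM in treated libraries, against 3.40, 3.14 and 2.41 CPM in DMSO libraries (log2 fold change 0.48, adjusted p = 0.0605). These genes stand at a few CPM, and USP36 and USP44 were lower while OTUD7B was higher in treated cells. The second USP7 model, 84.1 kb from the first, had 7.74, 8.30 and 7.58 CPM in treated libraries, against 11.6, 6.16 and 4.60 CPM in DMSO libraries, with overlapping groups (log2 fold change 0.07, adjusted p = 0.831).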
